A study of Mus musculus with 6 samples.

Results

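Collagen chains and the enzymes and chaperones that mature them were followed in MC3T3-E1 preosteoblasts cultured with or without C3G. The set was defined by name, with no measured value used: protein-coding genes whose symbol has the form of a collagen chain, together with hydroxylases, chaperones, propeptide proteases and cross-linking enzymes listed by symbol. Of the 11234 genes listed in the 6 libraries, 51 belonged to the set, 29 of them collagen chains and 22 enzymes or chaperones. The rule names 67 genes in the mouse annotation, and the other 16 (15 chains, *Col10a1* and *Col7a1* among them, and the lysyl oxidase homologue *Loxl2*) were not analysed here. Each listed gene reached a group mean of 0.5 FPKM in the control or the C3G libraries, and a chain below that level in both would not be seen.

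A collagen chain is a long row of Gly-X-Y triplets, and the glycine that opens each triplet lets the chains wind around each other into a helix. In the endoplasmic reticulum prolines and lysines of the chains are hydroxylated and some hydroxylysines receive sugars, the folding helix is held by HSP47 and other chaperones, and after secretion the end propeptides are removed and lysyl oxidases cross-link the fibrils. Type I collagen, made of *Col1a1* and *Col1a2* chains, is the main protein of bone matrix and a product of osteoblasts.

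MC3T3-E1 is an immortalized mouse skull preosteoblast line, labelled strain C57BL/6 and used here at passage 4 in all 6 libraries, so the data describe 1 line without any gene deletion or transgene. After 24 h of synchronization without serum, the cells of 3 libraries (C3G group) were kept for 24 h in complete medium with 100 μmol/L cyanidin-3-O-glucoside, a plant anthocyanin called C3G, and 3 (control group) in the same medium without it. The labels write the dose unit as um/l, and the sources used here name no osteogenic supplement. The deposited values are FPKM, fragments that is fragment numbers divided by gene length and by the fragments mapped in that library, so levels of different genes can be set side by side per length, whereas the depth of each library is unknown and no counting error can be given.

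Control replicate 1 stood apart from the other libraries. Its median FPKM over all genes was 5.80 against 6.93 to 7.399 in the other 5 libraries, and 71 genes were listed at 0 there against 9 to 18. Its departure from control replicates 2 and 3 followed transcript GC content, with a Spearman's rho of 0.748 over 11211 genes, which are not independent, and C3G replicate 1 departed from the other C3G libraries in the same way (rho 0.631 over the same genes). No set member was listed at 0 in any library. Of the osteoblast lineage markers, 7 of 7 were listed, *Runx2*, a transcription factor of the lineage, at 5.46 to 9.07 FPKM and *Sp7*, a later one, at only 0.237 to 0.857 FPKM. None of the 12 adipocyte, muscle and endothelial markers was listed. Of 5 chondrocyte markers 3 were listed, summing to 45.4 to 108 FPKM in the control group and 37.6 to 46.6 FPKM in the C3G group, nearly all of it *Col2a1*, while *Acan* and *Col10a1* were not listed. Epithelial markers were 2 of 4, at 79.9 to 149 FPKM in the control group and 72.6 to 104 FPKM in the C3G group, mostly *Krt14*, and the macrophage or osteoclast list had 1 of 6, *Ctsk*, at 16.6 to 34.5 FPKM.

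The repeat that defines these genes can be read in the exons. In the fibrillar genes many coding exons are exactly 54 bases long, which is 6 Gly-X-Y triplets: 21 of the 49 fully coding exons of *Col1a1*, 24 of 50 in *Col1a2*, 24 of 49 in *Col3a1* and 29 of 64 in *Col5a1*. The network chain *Col4a1* had 2 of 50 and the fibril-associated chain *Col12a1* 4 of 63. One such exon is shown for each of 7 chains whose levels are described here. The capitals mark the glycine codons (GGN), and the sequences are read 5′ to 3′ on the coding strand from the GRCm38 genome with GENCODE M21 exons. The numbers of the exons follow the transcript with the longest coding sequence.
*Col1a1* exon 8: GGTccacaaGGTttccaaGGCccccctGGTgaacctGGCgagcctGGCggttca
*Col1a2* exon 8: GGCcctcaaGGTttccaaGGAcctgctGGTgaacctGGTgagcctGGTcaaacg
*Col3a1* exon 6: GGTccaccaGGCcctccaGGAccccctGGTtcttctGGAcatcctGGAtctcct
*Col5a2* exon 6: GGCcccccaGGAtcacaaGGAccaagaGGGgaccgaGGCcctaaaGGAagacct
*Col2a1* exon 6: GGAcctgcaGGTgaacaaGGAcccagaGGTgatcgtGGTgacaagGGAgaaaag
*Col4a1* exon 7: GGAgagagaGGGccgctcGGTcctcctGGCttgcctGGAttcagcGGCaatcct
*Col12a1* exon 55: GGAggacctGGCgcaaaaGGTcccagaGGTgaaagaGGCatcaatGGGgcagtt
These exons lie at chr11:94939904-94939957 (plus strand) in *Col1a1*, chr6:4515481-4515534 (plus) in *Col1a2*, chr1:45325360-45325413 (plus) in *Col3a1*, chr1:45434892-45434945 (minus) in *Col5a2*, chr15:97998545-97998598 (minus) in *Col2a1*, chr8:11245211-11245264 (minus) in *Col4a1* and chr9:79614349-79614402 (minus) in *Col12a1*. The *Col1a1* and *Col1a2* exons are the same at 42 of 54 bases, yet only 2 of their 6 glycine codons are spelled alike. Their GC contents are 64.8% and 59.3%. Glycine made up a median of 24.5% of the codons of the 29 chains, against 6.99% in the 22 enzymes and chaperones and 6.28% over all genes. The longest unbroken run of Gly-X-Y triplets was 217 to 344 in the fibrillar chains and 1 to 4 in the enzymes and chaperones.

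C3G changed the level of none of these genes past the threshold. Genes were called as differentially expressed where the unadjusted two-sided p of limma was under 0.05 and the fold change 1.2 or more, on the log2(FPKM + 1) scale, which understates the change of low genes. At that threshold 0 of the 51 members were called, where 73 of all 11234 genes (0.65%) were, and 0 members had a p under 0.05 at any fold change, against 0.659% of all genes. With the replicate number as a block 0 members were called and 1.5% of all genes. The smallest limma p of a member was 0.118, for *Col2a1*, and after Benjamini-Hochberg adjustment over all genes 0 genes of the whole table passed. The values of both groups overlapped in all 51 members, while 4.02% of all genes had groups that did not overlap. In bulk RNA, fewer cells of a type and less RNA per cell cannot be told apart. The labels do not say whether the libraries of a group came from separate cultures, so p-values measure the spread between these libraries.

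**Figure D1:**
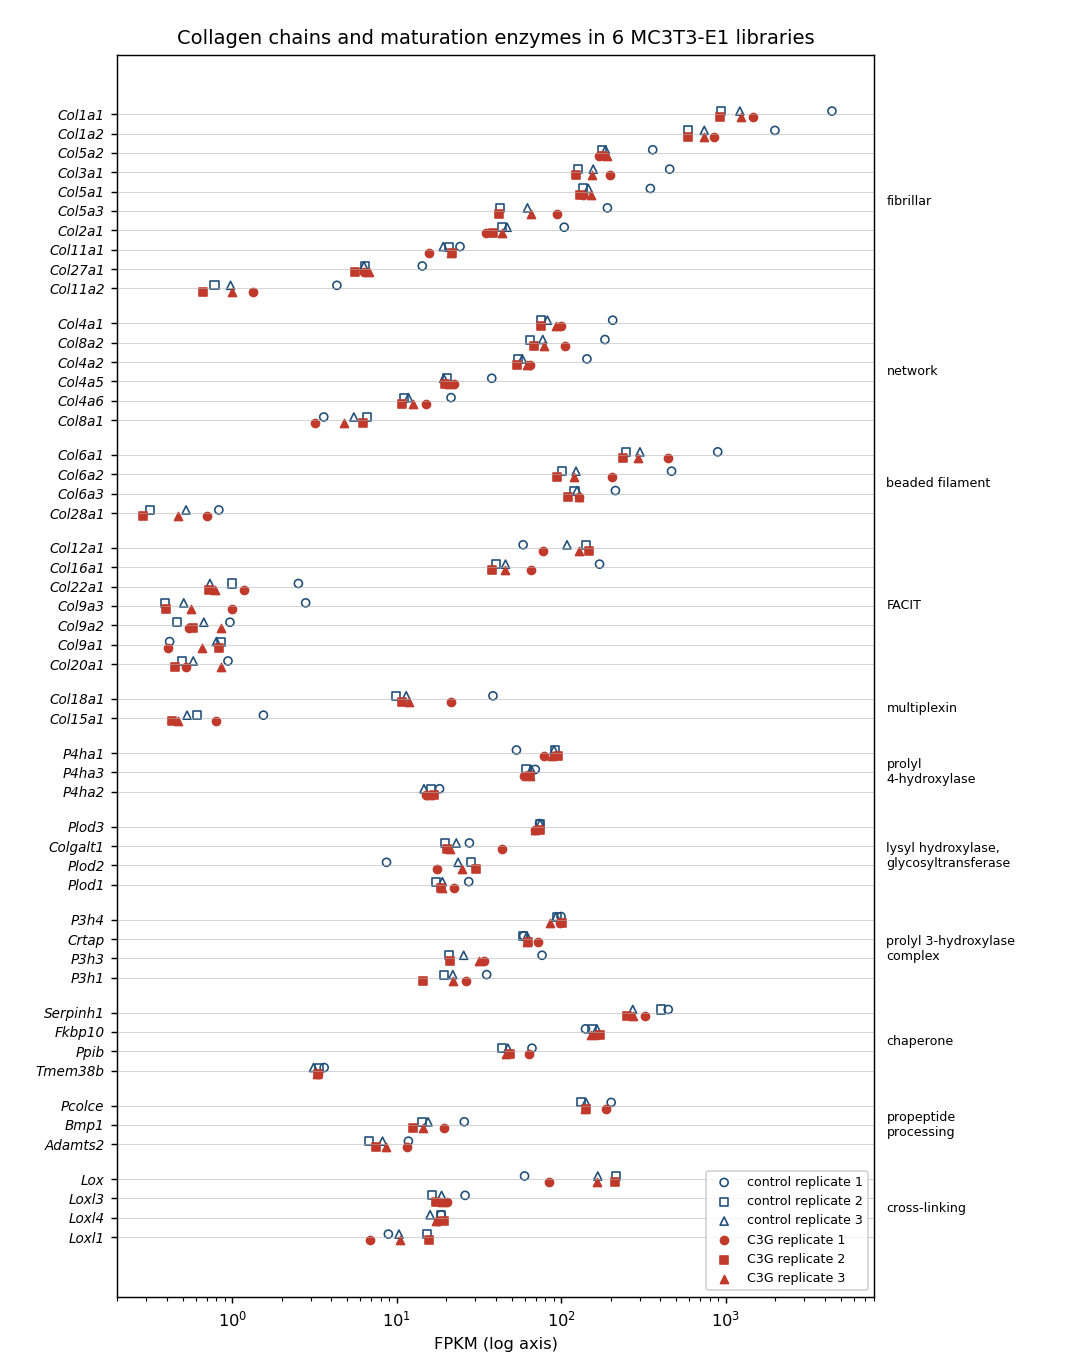
FPKM of the 51 genes in each of the 6 libraries on a log axis, grouped by role. Open symbols are control and filled symbols C3G libraries, and the shape gives the replicate number. Control replicate 1 (open circle) lies to the right of the other libraries for 26 of the 29 collagen chains, and the symbols of both groups overlap for every gene.

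Type I collagen was the highest pair of the set. *Col1a1*, the alpha1 chain (ENSMUSG00000001506.10, chromosome 11, 94936224 to 94953042, plus strand), measured 4432, 942 and 1221 FPKM in the control libraries. In the C3G libraries it measured 1478, 923 and 1246 FPKM. Such values are given throughout in the order of the replicate numbers, 1 to 3. The library labelled control replicate 1 was far above all the others, and without it the C3G values spanned the control values. The log2 fold change of *Col1a1* was -0.53 ± 0.583 (SE, n = 3 per group; limma p = 0.395, 95% interval -1.91 to 0.86), and the exact permutation p was 0.7. Within same-numbered libraries *Col1a1* differed by -1.58, -0.030 and 0.029 on the log2 scale, so that C3G was at 0.333, 0.979 and 1.02 times its control. Without control replicate 1 the fold change of *Col1a1* turned to 0.15. Leaving out that library alone keeps C3G replicate 1, which departed from its group in the same direction, so a turn of sign of this kind is not a comparison of paired libraries.

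*Col1a2*, the alpha2 chain (ENSMUSG00000029661.16, chromosome 6, 4504814 to 4541544, plus strand), measured 1995, 593 and 742 FPKM in the control libraries. With C3G it measured 852, 593 and 735 FPKM. Again control replicate 1 was the high library, and in replicates 2 and 3 control and C3G were nearly equal. The log2 fold change of *Col1a2* was -0.41 ± 0.463 (SE, n = 3 per group; 95% limma interval -1.51 to 0.69), turning to 0.12 without control replicate 1. Among all listed genes *Col1a1* ranked 2nd by FPKM in control replicate 1 and 10th to 18th in the other 5 libraries, and *Col1a2* ranked 4th there and 23rd to 34th elsewhere. Type I collagen took 2.59% of all summed FPKM in control replicate 1 and 0.603% to 0.885% in the other libraries.

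All 10 fibril-forming chains, these 2 included, had their highest value in control replicate 1 and a log2 fold change below 0, between -0.61 and -0.13. Of them 0 of 10 were called, where 0.65% of all genes were. At that share a group this small would seldom hold a called gene, so the counts called by role, here and below, say little. *Col3a1*, the chain of type III collagen, measured 457, 127 and 157 FPKM in the control libraries. With C3G it measured 198, 122 and 154 FPKM, a log2 fold change of -0.43 (95% limma interval -1.58 to 0.72), turning to 0.13 without control replicate 1. It was lower with C3G in each of the 3 same-numbered pairs, with differences of -1.20, -0.058 and -0.026, and was at -0.042 with replicates 2 and 3 only. The share of all genes with the same sign in all 3 pairs is not given here. Such agreement, for *Col3a1* and for the genes and ratios below, is therefore description only. A same-strand gene model, *Gm47302*, shares exons with *Col3a1*, so its reads are uncertain. Type V collagen sits inside type I fibrils and limits their width.
*Col5a2* measured 360, 177 and 186 FPKM in the control and 169, 177 and 190 FPKM in the C3G libraries. *Col5a1* measured 349, 136 and 146 FPKM in the control and 136, 131 and 152 FPKM in the C3G libraries, in the same order. For both, all libraries but control replicate 1 lay close together, and the log2 fold changes were -0.35 (95% limma interval -1.05 to 0.35) for *Col5a2* and -0.45 (-1.32 to 0.42) for *Col5a1*. With replicates 2 and 3 only, *Col5a2* was at 0.016 and *Col5a1* at 0.00077. *Col5a3*, another type V chain, ranged from 42.0 to 191 FPKM, with C3G replicate 1 (94.9 FPKM) the next highest after control replicate 1, and its log2 fold change of -0.31 turned to 0.31 without that control.

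*Col2a1*, the chain of cartilage type II collagen, had the smallest p of the set. It measured 104, 43.7 and 46.9 FPKM in the control and 35.1, 38.3 and 43.9 FPKM in the C3G libraries. It was lower with C3G in each of the 3 same-numbered pairs, with differences of -1.55, -0.18 and -0.094 on the log2 scale, but the highest C3G value lay above the lowest control value. The log2 fold change was -0.61 ± 0.340 (SE, n = 3 per group; limma p = 0.118, adjusted p = 0.992), the exact permutation p was 0.2, and the fold change was -0.21 without control replicate 1. Of the other cartilage markers, *Matn1* ranged from 0.700 to 2.94 FPKM and *Col9a1* from 0.407 to 0.852 FPKM, and their part in this result was not tested. *Col27a1*, a fibrillar chain known from cartilage, was at 14.3, 6.42 and 6.32 FPKM in the control and 6.35, 5.56 and 6.75 FPKM in the C3G libraries, with a log2 fold change of -0.39 (95% limma interval -1.12 to 0.35) that was -0.033 without control replicate 1. The type XI chains, partners of type II collagen, differed in level: *Col11a1* ranged from 15.7 to 24.3 FPKM with a log2 fold change of -0.13 (95% limma interval -0.58 to 0.32), and *Col11a2* from 0.665 to 4.33 FPKM with one of -0.42 (-1.42 to 0.57). The first turned to 0.019 without C3G replicate 1 and the second to 0.080 without control replicate 1.

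Of the network-forming chains, all 6 had a log2 fold change below 0, with a median of -0.23, and 0 were called. Type IV collagen is the sheet of basement membranes. *Col4a1* measured 206, 75.5 and 82.5 FPKM in the control and 99.8, 75.5 and 93.7 FPKM in the C3G libraries. *Col4a2* measured 144, 54.8 and 58.1 FPKM in the control and 64.4, 53.8 and 62.4 FPKM in the C3G libraries. Here too the high library was control replicate 1, and in replicate 3 both chains were a little higher with C3G, by 0.18 and 0.10 on the log2 scale. The log2 fold changes were -0.29 (95% limma interval -1.21 to 0.64) for *Col4a1* and -0.36 (-1.24 to 0.53) for *Col4a2*, turning to 0.17 and 0.088 without control replicate 1. Exons of *Col4a1* and *Col4a2* overlap on opposite strands, and the handling of strand in the authors' counting is not stated. The X-linked chains *Col4a5* (19.3 to 37.9 FPKM) and *Col4a6* (10.8 to 21.4 FPKM) were lower, with log2 fold changes of -0.23 (95% limma interval -0.87 to 0.41) and -0.14 (-0.80 to 0.51), which turned to 0.074 and 0.14 without control replicate 1. The network group reached down to *Col8a1*, a short-chain collagen, at 3.17 to 6.60 FPKM.

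Type VI collagen forms beaded filaments around cells. *Col6a1* measured 895, 249 and 301 FPKM in the control and 450, 239 and 294 FPKM in the C3G libraries. *Col6a2* measured 469, 102 and 123 FPKM in the control and 203, 95.03 and 119 FPKM in the C3G libraries. *Col6a3*, the largest chain of the type, measured 214, 121 and 125 FPKM in the control and 128, 110 and 128 FPKM in the C3G libraries. Control replicate 1 was the highest library for all 3 chains, and C3G replicate 1 stood above the other C3G libraries in *Col6a1* and *Col6a2*. The log2 fold changes were -0.36 (95% limma interval -1.58 to 0.85) for *Col6a1*, -0.45 (-1.88 to 0.98) for *Col6a2* and -0.28 (-0.88 to 0.33) for *Col6a3*, and without control replicate 1 these became 0.21, 0.24 and -0.010. *Col6a1* (-0.99, -0.056 and -0.037) and *Col6a2* (-1.21, -0.095 and -0.048) were lower with C3G in each of the 3 same-numbered pairs, and with replicates 2 and 3 only they were at -0.046 and -0.071. The fourth chain of this group, *Col28a1*, was the lowest of the set with a mean of 0.521 FPKM.

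Among the chains, *Col12a1* was the exception. It encodes a fibril-associated collagen that binds to the surface of type I fibrils, and it measured 58.7, 142 and 109 FPKM in the control libraries. With C3G it measured 77.3, 148 and 129 FPKM. It was lowest, not highest, in control replicate 1, and it was higher with C3G in each of the 3 same-numbered pairs, by 0.39, 0.061 and 0.25 on the log2 scale, although the groups overlapped. It was the only chain of 29 with a log2 fold change above 0, at 0.23 (95% limma interval -0.68 to 1.15), and this turned to -0.12 without control replicate 1, which leaves the low C3G replicate 1 unpaired, whereas with replicates 2 and 3 only it was 0.15 (-0.23 to 0.54). The 7 fibril-associated chains ranged in mean level from 111 FPKM for *Col12a1* down to 0.641 FPKM for *Col20a1*, and 0 of 7 were called. The multiplexins, whose ends are released as endostatin-like fragments, were *Col18a1* at 9.95 to 38.5 FPKM and *Col15a1* at 0.432 to 1.55 FPKM, neither of them called.

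*Serpinh1* encodes HSP47, the chaperone of the endoplasmic reticulum that binds folded procollagen, and was the highest of the enzymes and chaperones. It measured 448, 405 and 273 FPKM in the control and 325, 252 and 274 FPKM in the C3G libraries. It was lower with C3G in replicates 1 and 2, with differences of -0.46 and -0.68 on the log2 scale, and nearly equal in replicate 3. The log2 fold change was -0.38 ± 0.243 (SE, n = 3 per group; limma p = 0.163, adjusted p = 0.992), and the exact permutation p was 0.3. Without control replicate 3 it became the only member called, with a limma log2 fold change of -0.59 in a fit that called 0.89% of all genes and 0.365% as lower with C3G, and without control replicate 1 it was at -0.24. With replicates 2 and 3 only, it was at -0.34 (95% interval -0.84 to 0.16). No exon of another gene overlaps those of *Serpinh1* (chromosome 7, 99345376 to 99353239, minus strand).
The other chaperones were not called: *Fkbp10*, a prolyl isomerase that acts on collagen, ranged from 141 to 171 FPKM, *Ppib* (cyclophilin B) from 43.8 to 66.5 FPKM, and *Tmem38b*, an ion channel of the endoplasmic reticulum, from 3.12 to 3.62 FPKM.

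Of the 3 prolyl 4-hydroxylase subunits and the 4 lysyl hydroxylases and glycosyltransferase, 0 were called. *P4ha1*, the main catalytic subunit of prolyl 4-hydroxylase, whose product keeps the helix stable at body temperature, measured 53.5, 91.3 and 90.5 FPKM in the control and 78.8, 95.6 and 88.3 FPKM in the C3G libraries. It was low in control replicate 1 and otherwise close, with a log2 fold change of 0.19 (95% limma interval -0.39 to 0.77) that was -0.058 without that library. *Plod3*, a lysyl hydroxylase that also adds sugars, ranged from 69.0 to 74.5 FPKM over all 6 libraries, the smallest ratio of highest to lowest value in the set (1.08), with a log2 fold change of -0.066 (95% limma interval -0.40 to 0.26). *Plod2*, which hydroxylates the lysines of the chain ends used for cross-links, measured 8.68, 28.2 and 23.6 FPKM in the control and 17.6, 30.5 and 25.1 FPKM in the C3G libraries. It was higher with C3G in each of the 3 pairs, by 0.94, 0.11 and 0.084 on the log2 scale, and low in both replicate 1 libraries. Its log2 fold change of 0.38 was the highest of the set (95% limma interval -0.66 to 1.42), and it turned to -0.11 without control replicate 1 and was 0.096 with replicates 2 and 3 only and 0.21 with GC correction. *Colgalt1*, which adds galactose to hydroxylysine, had its highest value in C3G replicate 1 (43.5 FPKM, against 19.8 to 27.7 FPKM in the other 5) and a log2 fold change of 0.18 (95% limma interval -0.57 to 0.93), which was -0.16 without that library.

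Prolyl 3-hydroxylase 1 with its helper modifies a few prolines of the fibrillar chains, and 0 of the 4 genes listed in the prolyl 3-hydroxylase role were called. *P3h4*, a helper without enzyme activity of its own, measured 99.9, 93.8 and 93.2 FPKM in the control and 98.7, 102 and 86.2 FPKM in the C3G libraries, a log2 fold change of -0.0050 (95% limma interval -0.36 to 0.35). *Crtap*, the helper subunit of prolyl 3-hydroxylase 1, measured 59.2, 58.5 and 62.0 FPKM in the control and 72.8, 62.6 and 61.7 FPKM in the C3G libraries, a log2 fold change of 0.13 (95% limma interval -0.22 to 0.48) that was 0.052 without C3G replicate 1 and 0.044 with replicates 2 and 3 only. Control replicate 1 did not stand apart in either gene, and the highest *Crtap* value was that of C3G replicate 1. In the enzymes of the role it was the highest library. *P3h3* measured 76.5, 20.7 and 25.6 FPKM and *P3h1* 35.2, 19.5 and 22.0 FPKM in the control libraries, with log2 fold changes of -0.28 and -0.27.

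For the steps outside the cell, *Pcolce*, which enhances removal of the C-propeptide, measured 201, 132 and 142 FPKM in the control and 187, 142 and 140 FPKM in the C3G libraries. Its log2 fold change was -0.0011 (95% limma interval -0.54 to 0.54), turning to 0.19 without control replicate 1, and a same-strand gene, *Fbxo24*, shares exons with it. *Bmp1*, the C-propeptide protease, and *Adamts2*, the N-propeptide protease, ranged from 12.6 to 25.8 FPKM and from 6.81 to 11.8 FPKM. *Lox*, the main lysyl oxidase, measured 59.9, 216 and 167 FPKM in the control and 84.5, 214 and 164 FPKM in the C3G libraries. Its values ran opposite to those of type I collagen: both replicate 1 libraries were low, and replicates 2 and 3 were nearly equal between the groups. The log2 fold change of *Lox* was 0.15 (95% limma interval -1.14 to 1.44), and -0.40 without control replicate 1. The other 3 lysyl oxidase homologues ranged from 6.93 FPKM (lowest value of *Loxl1*) to 26.1 FPKM (highest value of *Loxl3*). Exons of *Lox*, *Plod2*, *Plod3*, *Colgalt1*, *Fkbp10*, *Ppib*, *Loxl3* and *Col5a1* overlap those of a gene on the opposite strand, so their values are uncertain in the same way as those of *Col4a1*.

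Set side by side over the list, 41 of the 51 log2 fold changes were below 0, 28 of 29 among the chains and 13 of 22 among the enzymes and chaperones, where 38.0% of all genes were below 0. Median centring gave 28 of 29 chains, 16 of 22 enzymes and chaperones and 51.7% of all genes below 0, quantile normalization 28, 11 and 50.7%, and GC correction 27, 11 and 50.4%. The median was -0.28 for the chains, -0.011 for the enzymes and chaperones and 0.057 for all genes. These directions rested on control replicate 1. Without it, 10 of 29 chains and 18 of 51 members were below 0, and the median of the chains was 0.080 against -0.012 for all genes. With replicates 2 and 3 only, which keeps the numbers paired, 15 of 29 chains and 21 of 51 members were below 0, where 54.96% of all genes were, and the median of the chains was -0.00088 against -0.011 for all genes.
Within same-numbered pairs of libraries the split was as plain. In pair 1, 10 of the 51 members lay within 0.2 of each other on the log2 scale (19.6%, against 27.4% of all genes), and the chains had a median of -0.93. In pair 2, 48 of 51 lay within 0.2 (94.1%, against 84.4% of all genes), with a chain median of -0.035. In pair 3 it was again 48 of 51 (94.1%, against 84.5% of all genes), with a chain median of 0.035. The members outside that range, singled out after their values were seen, were *Serpinh1* (-0.68), *P3h1* (-0.41) and *Col22a1* (-0.21) in pair 2, and *P3h3* (0.30), *Col12a1* (0.25) and *Col20a1* (0.23) in pair 3.

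**Figure D2:**
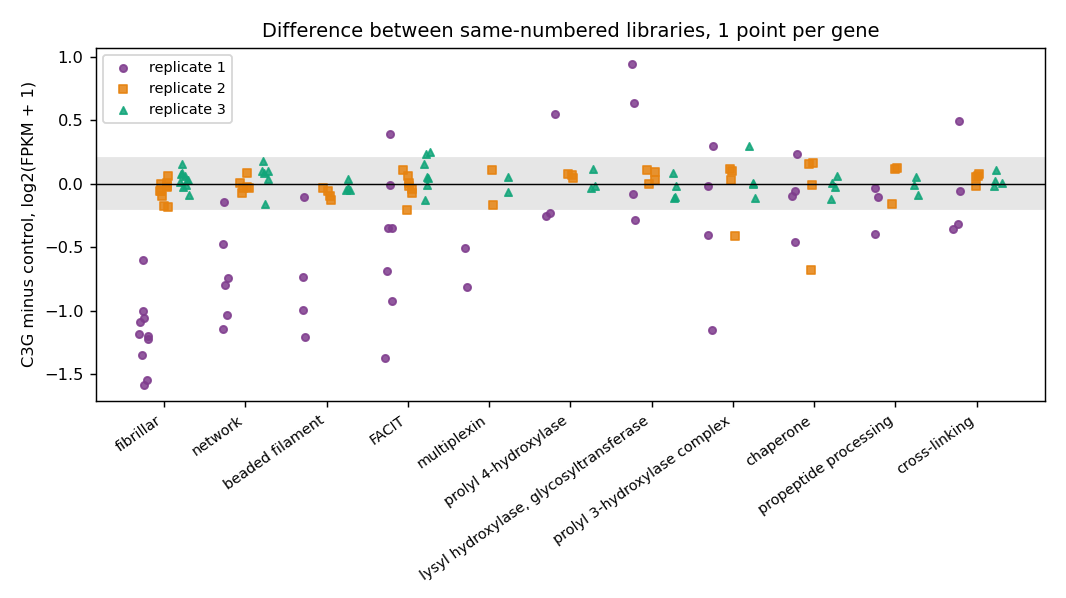
Difference of log2(FPKM + 1) between the C3G and the control library of the same replicate number, 1 point per gene, by role. The grey band marks differences of up to 0.2 in either direction, which hold 10 of 51 genes in replicate 1 and 48 of 51 in replicates 2 and 3.

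The intervals show which changes the data leave room for. With all 6 libraries the 95% limma interval had a median width of 1.32 on the log2(FPKM + 1) scale. Turned back to FPKM around the control mean of that scale, it lay within a 2-fold change in either direction for 22 of the 51 members. With replicates 2 and 3 only, the median width was 0.568, the bounds ran from -0.84 to 0.71 on the log2(FPKM + 1) scale, and the interval lay within a 2-fold change of FPKM for 46 of 51 members. For *Col1a1* that interval was -0.50 to 0.50, around a log2 fold change close to 0, and for *Col1a2* it was -0.42 to 0.40. A p above the threshold therefore leaves room for changes of those sizes and does not show equal levels.

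**Figure D3:**
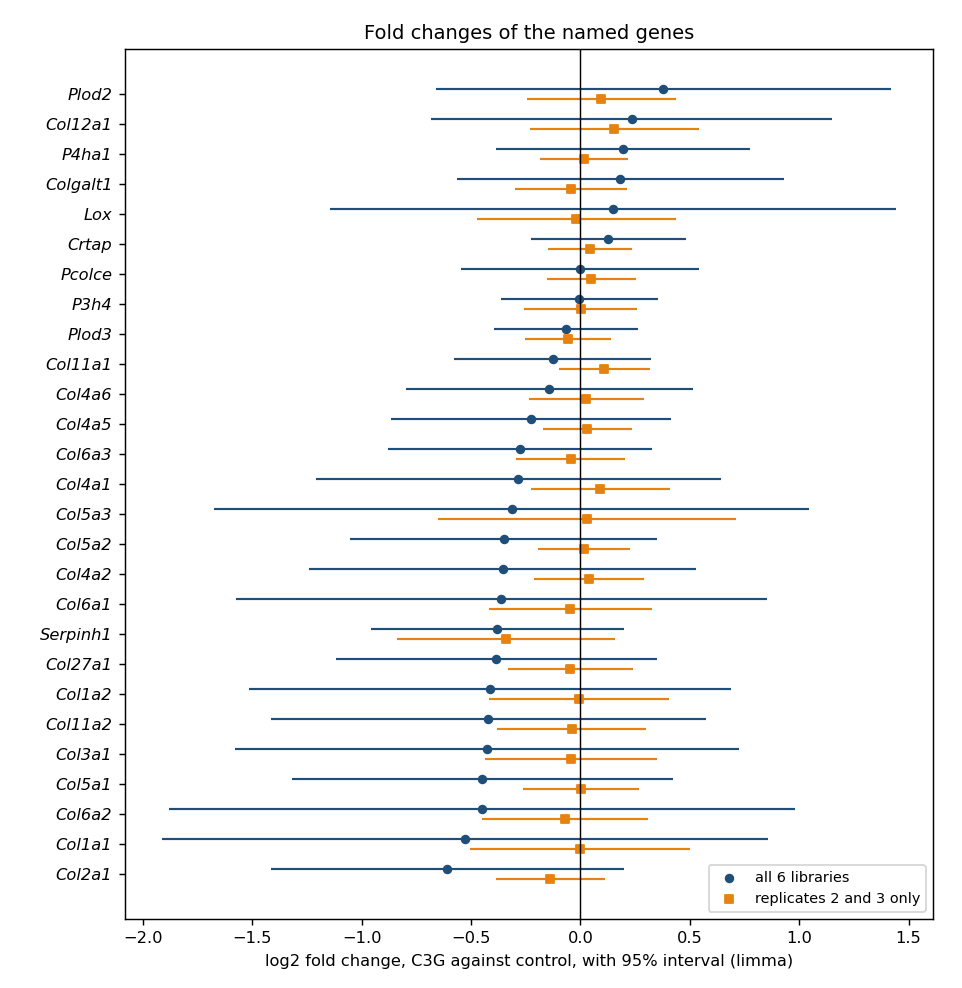
Limma log2 fold change with its 95% interval for 27 genes, C3G against control. Circles are from all 6 libraries and squares from replicates 2 and 3 of both groups; every interval crosses 0, and the squares' intervals are the narrower ones for most genes.

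The collagen chains were higher together in control replicate 1. They took 4.18% of all summed FPKM there and 1.17% to 1.61% in the other 5 libraries, while the 22 enzymes and chaperones took 0.629% there and 0.548% to 0.621% elsewhere. Against the mean of control replicates 2 and 3, the chains departed by a median of 1.19 on the log2 scale, with 26 of 29 above 0 and 16 of 29 above 1. The enzymes and chaperones departed by a median of 0.18, with 1 of 22 above 1 (*P3h3*, 1.69), and all genes by -0.20, with 4.99% above 1. *Col6a2* was 4.18 times, *Col1a1* 4.10 times and *Col1a2* 2.99 times its mean in the other controls. The 3 chains below 0 were *Col12a1* (-1.07), *Col8a1* (-0.61) and *Col9a1* (-0.37), and the lowest enzymes were *Lox* (-1.65), *Plod2* (-1.47) and *P4ha1* (-0.75).

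GC content moved with this departure. The median GC content of the longest transcript was 56.4% for the chains, 54.8% for the enzymes and chaperones and 49.6% for all genes. Across genes, Spearman's rho between GC content and the departure was 0.551 for the 29 chains, 0.150 for the 22 enzymes and chaperones and 0.748 for all genes, all from the same 3 libraries. At a GC content of at least 55% the median departure was 1.38 for 18 chains, 0.10 for 10 enzymes and chaperones and 0.53 for 2518 genes of any kind, and 15 of the 18 chains (83.3%) were above 1, against 15.8% of those genes. Below that GC content the 11 chains had a median departure of 0.80, and 1 of them (9.09%) was above 1, beside a median of 0.29 with 0 above 1 for 12 enzymes and chaperones and a median of -0.40 with 1.86% above 1 for 8693 genes of any kind. After a correction that removes each library's smooth dependence on GC content, the chains still departed by a median of 0.77, with 24 of 29 above 0, the enzymes and chaperones by 0.082 and all genes by -0.0041. With that correction 27 of 29 chains had a log2 fold change below 0 between the groups, with a median of -0.22 against -0.0013 for all genes, and 0 members were called. The part that GC dependence of the libraries had in the chain levels was not tested.

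**Figure D4:**
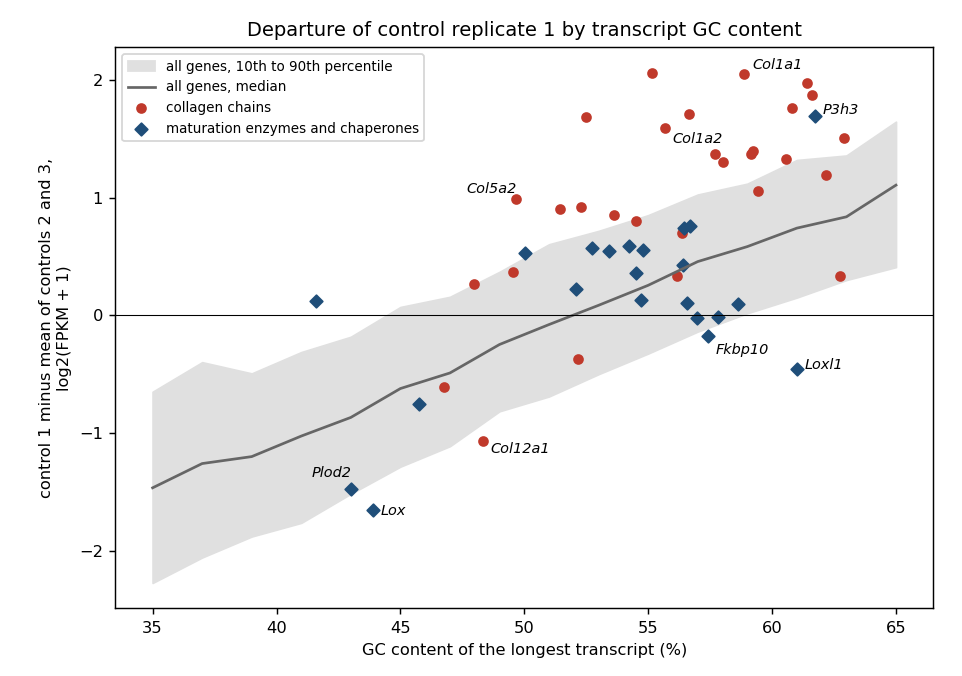
Departure of control replicate 1 from the mean of control replicates 2 and 3, in log2(FPKM + 1), against the GC content of the longest transcript. Red circles are the 29 collagen chains, blue diamonds the 22 enzymes and chaperones, the line and grey band the median and the 10th to 90th percentile of all genes; most chains lie above the band or in its upper part, and *Lox*, *Plod2* and *Col12a1* lie at the low end.

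Ratios between partner chains, which are free of a library's overall scaling, spanned less than the chains themselves. The ratio of *Col1a1* to *Col1a2* FPKM was 2.22, 1.59 and 1.65 in the control and 1.73, 1.56 and 1.69 in the C3G libraries. Its largest value was 1.43 times its smallest, where *Col1a1* itself spanned 4.80 times. For types V, IV and VI the ratio spanned 1.31, 1.13 and 1.32 times, where *Col5a1*, *Col4a1* and *Col6a1* spanned 2.67, 2.73 and 3.75 times. The ratio of *Col5a1* to *Col5a2* was 0.968, 0.768 and 0.786 in the control and 0.806, 0.737 and 0.802 in the C3G libraries. The ratio of *Col4a1* to *Col4a2* was 1.43, 1.38 and 1.42 in the control and 1.55, 1.40 and 1.502 in the C3G libraries, and that of *Col6a1* to *Col6a2* was 1.91, 2.45 and 2.45 and then 2.22, 2.52 and 2.47. In the types I and V the ratio was highest in control replicate 1 and in type VI lowest there, so the partners did not rise there by exactly the same factor. The groups overlapped in all 4 ratios, although those of types IV and VI were higher with C3G in each of the 3 same-numbered pairs. The group difference of type IV turned to -0.0062 with GC correction, and that of type VI to -0.031 without control replicate 1. The differences between groups were -0.12 (exact permutation p = 0.8), -0.098 (p = 0.6), 0.073 (p = 0.3) and 0.089 (p = 0.5) on the log2 scale for types I, V, IV and VI, with 0.8 for each of the 4 after Benjamini-Hochberg adjustment; 3 libraries against 3 cannot give a p below 0.1.

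**Figure D5:**
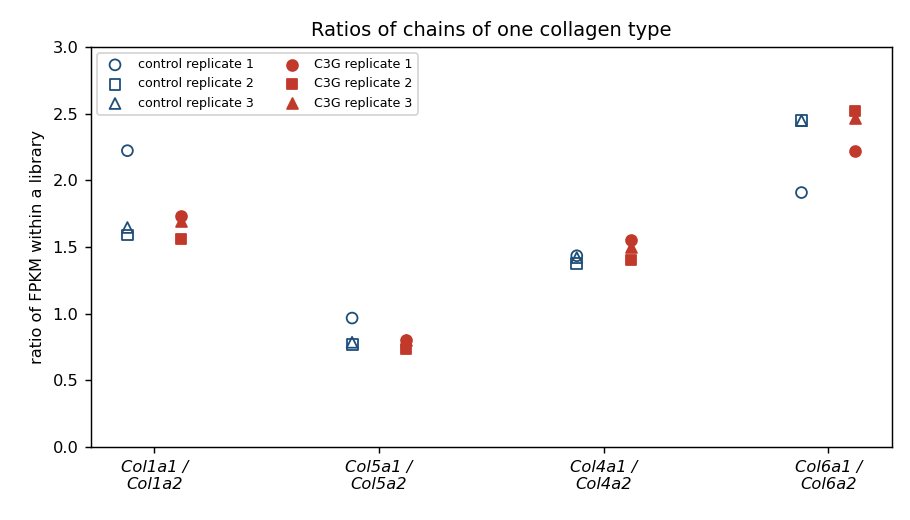
Ratio of the FPKM of partner chains within each library, for collagen types I, V, IV and VI. Open symbols are control and filled symbols C3G libraries; the control replicate 1 circle is the highest of its pair for types I and V and the lowest for type VI.

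The same route also uses genes outside the set. Of 30 genes of collagen folding, secretion, fibril assembly, uptake and proline supply, 25 were listed and 0 were called in either direction, where 0.65% of all genes were. Among them 20 had a log2 fold change above 0 and 5 below, where 62.0% of all genes were above 0, and the median was 0.082 beside 0.057 for all genes. The highest, of *Lum* at 0.56, came with differences of 1.64, 0.10 and -0.070 in the same-numbered pairs. Whether the directions of this list rested on control replicate 1 was not tested. Of those above 0, the smallest p belonged to *Sec24d*, a coat protein of vesicles that leave the endoplasmic reticulum, at 0.43 (95% limma interval -0.25 to 1.10). *Sec31a*, of the outer coat of the same vesicles, came next at 0.23 (-0.17 to 0.63). It measured 21.6, 28.5 and 28.2 FPKM in the control and 32.3, 29.5 and 29.98 FPKM in the C3G libraries, so its groups did not overlap, as in 4.02% of all genes (exact permutation p = 0.1, the smallest possible). *Sec24d* measured 10.6, 22.5 and 19.3 FPKM in the control and 24.3, 24.7 and 19.7 FPKM in the C3G libraries. The lowest value of both genes was control replicate 1. Among those below 0, the smallest were *Ddr1*, a collagen receptor, at -0.18 (95% limma interval -0.79 to 0.42) and *Adamts14*, an N-propeptide protease, at -0.084 (-0.44 to 0.27).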

How the data were processed

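RNA-seq was performed on 6 MC3T3-E1 libraries from a stranded kit, 3 control and 3 C3G, grouped by their labels. The authors calculated the deposited FPKM values with Ballgown. The submitters' processing notes name cutadapt, HISAT2 2.1.0, StringTie, STAR 2.5.2b and the build hg19, without roles, although the gene identifiers are mouse. Of 11234 genes, 11227 matched a symbol in GENCODE M21 (GRCm38). Exons, GC content and sequences come from that release, and 23 genes had no GC value.

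A model on log2(FPKM + 1) was fitted over all genes with limma 3.58.1 (R 4.3.3), eBayes with trend, group as the only term, without a filter. The fit was also run on simulated data whose spread was set smaller than that of these libraries, so that run does not measure its power here. Chain ratios were compared with two-sided exact permutation tests (scipy 1.17.1, Python 3.11.15). Alternatives (17, of which 6 leave out a library) are listed in the closing section. Depth per sample is unknown.

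Same-numbered libraries departed together from their group means (correlations 0.653, 0.580 and 0.440 across genes, against -0.640 to 0.307 for other pairs). The replicate numbers from the labels were therefore taken as pairing them and used in the replicate block. Over the set members alone the same-numbered correlations were 0.781, 0.898 and 0.160. There control replicate 3 went with C3G replicate 2 at 0.724, and control replicate 2 with C3G replicate 3 at 0.194. The pairing of number 3 was thus not seen among the members, and departures within a group are not independent.

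Members and gene lists were chosen with earlier results of these data known. Named were the chains of types I, III, IV, V, VI, XI and XII, the highest enzyme or chaperone of each role, and the 5 members with the smallest p in each direction; the highest and lowest of a role were named for level, and the 2 smallest p in each direction among the related genes. Other names were chosen after their values were seen.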

Additional observations from a re-analysis of the deposited data

How the results depend on the processing

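The FPKM files hold no counts, so counting error and depth limits cannot be given, and genes low in both groups are not listed. No member was called under a pseudocount of 0.1, a mean FPKM of at least 1 (45 members tested), median centring, quantile normalization, the ratio of group means, limma without its trend, unmoderated linear models, GC correction or replicates 2 and 3 only. The replicate block changed no call: 0 members were called with it, and the smallest member p was 0.0970, while 169 of all genes (1.5%) were called against 73 without it. Median centring put 44 of 51 members below 0, quantile normalization 39 and GC correction 38.

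Reversals are given for the 27 genes whose fold changes were recomputed one by one, and other members were not listed here. With replicates 2 and 3 only those that reversed were *Col5a2* (0.016), *Col5a1* (0.00077), *Col4a1* (0.091), *Col5a3* (0.029), *Col4a2* (0.038), *Col4a5* (0.031), *Col11a1* (0.11), *Col4a6* (0.026), *Lox* (-0.019), *P3h4* (0.00064), *Pcolce* (0.050) and *Colgalt1* (-0.045). With GC correction, and equally when the replicate block was added to it, they were *Lox* (-0.0035), *Plod3* (0.024), *P3h4* (0.11) and *Pcolce* (0.024), and with quantile normalization *P3h4* (0.010) and *Pcolce* (0.017). Without a change of sign, GC correction moved by over 1.5 times *Plod2* (0.21), *P4ha1* (0.067), *Col12a1* (0.15), *Crtap* (0.20), *Col2a1* (-0.39), *Col27a1* (-0.25), *Col5a3* (-0.12), *Col11a1* (-0.22), *Col11a2* (-0.18), *Col4a2* (-0.19) and the ratio of *Col1a1* to *Col1a2* (-0.039). It also turned the ratios of *Col5a1* to *Col5a2* (0.064) and *Col4a1* to *Col4a2* (-0.0062). The cause was not tested.

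Leaving out 1 library at a time gave 0 to 1 members called, 0 past adjustment, 0 related genes called and a member median of -0.31 to 0.060. The log2 fold change ranged from -0.96 to 0.15 for *Col1a1*, -0.76 to 0.12 for *Col1a2*, -0.72 to 0.21 for *Col6a1*, -0.78 to 0.13 for *Col3a1*, -0.86 to 0.24 for *Col6a2*, -0.12 to 0.51 for *Col12a1*, -0.55 to 0.17 for *Col4a1*, -0.76 to 0.31 for *Col5a3*, -0.60 to 0.088 for *Col4a2*, -0.39 to 0.074 for *Col4a5*, -0.21 to 0.019 for *Col11a1*, -0.31 to 0.14 for *Col4a6* and -0.71 to 0.080 for *Col11a2*. It ranged from -0.40 to 0.53 for *Lox*, -0.051 to 0.067 for *P3h4*, -0.058 to 0.32 for *P4ha1*, -0.14 to 0.19 for *Pcolce*, -0.11 to 0.69 for *Plod2* and -0.16 to 0.37 for *Colgalt1*. Without a change of sign it ranged from -0.59 to -0.24 for *Serpinh1*, -0.42 to -0.010 for *Col6a3*, -0.53 to -0.023 for *Col5a2*, -0.69 to -0.016 for *Col5a1*, -0.83 to -0.21 for *Col2a1*, -0.57 to -0.033 for *Col27a1*, -0.099 to -0.047 for *Plod3* and 0.052 to 0.17 for *Crtap*. The chain ratios ranged from -0.20 to 0.037 (type I), -0.16 to 0.0072 (type V), 0.041 to 0.11 (type IV) and -0.031 to 0.15 (type VI).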
